A study of Mus musculus with 4 samples.

Results

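Liver non-parenchymal cells of mice with metabolic dysfunction-associated steatohepatitis (MASH) were set against those of chow-fed mice after 12 weeks, in every cell class and in each hashtag group of cells. Male C57BL/6J mice were 8 weeks old at the start. The MASH group received the FAT-MASH regimen, a Western diet (sucrose 41%, fat 21.1%, cholesterol 1.25%), drinking water with 23.1 g/L d-fructose and 18.9 g/L d-glucose, and weekly intraperitoneal injections of carbon tetrachloride (CCl4), a hepatotoxin, at a low dose. The chow group received regular chow, and the labels name no vehicle injection for it. Diet, sugar water and CCl4 therefore cannot be told apart. Livers were digested with collagenase IV and DNase I, non-parenchymal cells were enriched on a Percoll gradient, and 5′ droplet libraries were sequenced. There was 1 library per group at each of 12 and 24 weeks, so no difference below has a replicate check and none carries a p-value.

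Cells were taken with at least 500 gene UMIs (unique molecular identifiers, each standing for 1 captured transcript), at least 300 genes and at most 15% mitochondrial UMIs. At 12 weeks 18436 chow and 17225 MASH barcodes passed, and after doublet removal 16345 and 15048 cells were kept, 31393 of the 70600 kept in the whole series. Median depth was 1982 UMIs per cell in chow and 3055.5 in MASH, and the kept cells held 43449125 and 64600794 UMIs. Cells carried antibody hashtags, numbers 1 to 3 in chow and 4 to 6 in MASH. What each hashtag stands for is not given in the labels. The 3 hashtag groups of a library are given as the spread within that library, never as animals. A single hashtag was assigned to 11657 chow cells (3555, 3921 and 4181) and 10920 MASH cells (3640, 3578 and 3702). A stricter rule asked for at least 80% of a cell's hashtag UMIs. Before doublet removal it gave the same hashtag to 40.0% of the single-hashtag chow cells and 25.2% of those in MASH. The hashtag groups may therefore be mixed. Cells without a single hashtag count in the library values only. Per the file headers, the chow reads were processed with Cell Ranger 5.0.1 and the MASH reads with Cell Ranger 4, so software and diet cannot be told apart at 12 weeks. Of the barcode names, 507 were shared by both libraries (2.61% of the chow and 2.67% of the MASH list). Xist had 1 and 0 UMIs and the Y-linked Ddx3y 3623 and 5756 UMIs, as male mice give.

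In the liver, resident macrophages (Kupffer cells) and monocytes recruited from blood share the work of clearing debris and lipid. Macrophages that take up lipid are known for genes such as Trem2, Gpnmb and Spp1, in fatty liver as in other tissues. Sinusoidal endothelial cells line the capillaries and signal to hepatocytes, whose metabolism differs between the periportal and the pericentral end of the lobule. The regimen feeds cholesterol, and cells that take up sterol are known to lower the genes of its synthesis through the SREBP2 pathway and to raise sterol efflux genes through LXR.

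Expression in a cell class is given in CPM, the class's UMIs of a gene per 1000000 gene UMIs of that class and library, and a ratio is MASH over chow with an exact conditional binomial 95% interval that covers counting error only. A gene was tested in a class where at least 10 UMIs were expected in each library at equal CPM. It was called higher or lower where the ratio was at least 2-fold, the interval was clear of 1 and the 3 MASH hashtags all lay on one side of the 3 chow hashtags. The hashtag condition was left out in the C1q macrophage-like, neutrophil-like and collagen-gene classes, where a hashtag had under 20 cells. Called is a description of these libraries and not a test.

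The myeloid share of the suspension was larger in the MASH library. C1q macrophage-like cells, the class with complement C1q genes, made up 0.575% of chow and 4.13% of MASH cells (ratio 7.18, 5.77 to 9.01). By hashtag their share was 0.4501, 0.459 and 0.646% in the chow hashtags and 3.41, 2.54 and 5.38% in the MASH hashtags. The ratio was 3.30 under a coarser clustering (Leiden resolution 0.5), where monocyte-like cells had no class of their own. Monocyte-like cells were 2.196% of chow and 5.104% of MASH cells (ratio 2.32, 2.05 to 2.64), with 2.25, 2.22 and 2.99% in the chow hashtags and 7.61, 3.91 and 3.03% in the MASH hashtags. Conventional dendritic-like cells were 1.62% of chow and 3.88% of MASH cells (ratio 2.403, 2.07 to 2.79), with 0.985, 1.17 and 2.32% in the chow hashtags and 4.23, 4.02 and 2.84% in the MASH hashtags. All 3 classes were above chow in every MASH hashtag, though for monocyte-like cells hashtag 6 was barely so, and without hashtag 4 their ratio over single-hashtag cells was 1.38 in place of 1.93. The dendritic difference was uneven between clusters. The cluster with Xcr1, Clec9a and Cd209a was 1.47% of chow and 2.85% of MASH cells (ratio 1.93, 1.65 to 2.27). The small cluster led by Il12b, Ccl22 and Fscn1, genes of mature migrating dendritic cells, was 0.141% of chow and 1.03% of MASH cells (ratio 7.32, 4.71 to 11.9). It held 23 chow and 155 MASH cells, with 0.0281, 0.128 and 0.239% in the chow hashtags and 1.15, 1.01 and 0.486% in the MASH hashtags.

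Stromal and epithelial classes of low abundance also differed. The collagen-gene cluster was 0.526% of chow and 1.94% of MASH cells (ratio 3.69, 2.89 to 4.75), with 0.0844, 0.408 and 0.1196% in the chow hashtags and 0.495, 1.45 and 2.13% in the MASH hashtags. Its ratio over single-hashtag cells was 6.63, and 13.2 without chow hashtag 2, which held most of the chow cells with a single hashtag. With the 12-week libraries clustered alone, the class was split. A cluster led by mesothelial genes such as Nkain4 and Upk3b held 36 chow and 237 MASH cells. Another, with Dpt and C7 among its leading genes, held 49 chow and 51 MASH cells. Cholangiocyte-like cells, named by bile duct markers, were 0.4099% of chow and 1.22% of MASH cells (ratio 2.98, 2.24 to 4.01). Inside the class, the cluster led by Spp1 was 0.251% of chow and 1.13% of MASH cells (ratio 4.50, 3.19 to 6.50). That led by Dmbt1, Spink4 and Tff3 was 0.159% of chow and 0.0930% of MASH cells (ratio 0.585, 0.282 to 1.16). Plasmacytoid dendritic-like cells were 2.51% of chow and 3.62% of MASH cells (ratio 1.44, 1.27 to 1.65), with 2.897, 2.75 and 2.51% in the chow hashtags and 2.97, 4.25 and 3.81% in the MASH hashtags. Neutrophil-like cells had a share ratio of 1.88 (1.54 to 2.31), with 0.422, 1.84 and 0.765% in the chow hashtags and 2.17, 1.26 and 1.73% in the MASH hashtags, and these hashtag shares overlapped. The erythroid-like ratio was 1.33 (1.14 to 1.56) and that of basophil- or mast-like cells 1.26 (0.979 to 1.62), the latter with overlapping hashtags.

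The abundant lymphocyte classes had share ratios near 1. B-cell-like cells were 24.5% of chow and 23.2% of MASH cells (ratio 0.946, 0.904 to 0.991), T-cell-like cells 24.8% of chow and 22.1% of MASH cells (ratio 0.889, 0.849 to 0.931) and NK-like cells, which include type 1 innate lymphoid cells (ILC1), 6.91% of chow and 8.85% of MASH cells (ratio 1.28, 1.18 to 1.39). The hashtags of the 2 libraries overlapped for each of the 3 classes. Inside the B-cell-like class, the Ighd-led cluster was 13.6% of chow and 8.59% of MASH cells (ratio 0.6302, 0.588 to 0.675), and all MASH hashtags lay below the chow hashtags (15.8, 14.6 and 13.8% in the chow hashtags and 10.3, 8.89 and 7.996% in the MASH hashtags). The Cr2-expressing cluster went the other way, at 10.7% of chow and 14.5% of MASH cells (ratio 1.36, 1.28 to 1.45), with overlapping hashtags (13.9, 9.74 and 9.54% in the chow hashtags and 18.5, 12.5 and 15.2% in the MASH hashtags). The T-cell-like cluster led by naive genes such as Lef1 and Tcf7 was 8.27% of chow and 5.98% of MASH cells (ratio 0.723, 0.664 to 0.787). Endothelial-like cells were 10.7% of chow and 9.13% of MASH cells (ratio 0.852, 0.794 to 0.915), and MASH hashtag 4 stood apart, with 11.6, 8.77 and 10.6% in the chow hashtags and 4.698, 10.5 and 12.4% in the MASH hashtags. Without hashtag 4 the ratio over single-hashtag cells was 1.12. Hepatocyte-like cells, left over after enrichment for other cells, were 8.25% of chow and 2.81% of MASH cells (ratio 0.341, 0.305 to 0.3802). Of the 1349 hepatocyte-like chow cells, 157, 115 and 152 carried a single hashtag, so their shares by hashtag (4.42, 2.93 and 3.64% in the chow hashtags and 0.769, 1.43 and 3.16% in the MASH hashtags) were below the library values. They overlapped between libraries. A cluster with both T-cell and endothelial markers, counted in neither class, was 8.03% of chow and 4.57% of MASH cells (ratio 0.568, 0.517 to 0.624), and its hashtags did not overlap (10.01, 7.498 and 7.18% in the chow hashtags and 3.02, 5.25 and 4.16% in the MASH hashtags). Its cells bear on the T-cell and endothelial shares. Unnamed clusters held 4.54% of chow and 3.67% of MASH cells (ratio 0.808, 0.722 to 0.903). Among them, clusters that best matched B cells went both ways. That with hepatocyte genes held 336 chow and 80 MASH cells (ratio 0.259, 0.200 to 0.331). That of low depth held 343 and 422 (ratio 1.34, 1.16 to 1.55). Both are outside the B-cell-like share. A share depends on what else was captured and on the enrichment, so no share here is a count of cells in the liver.

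**Figure D1:**
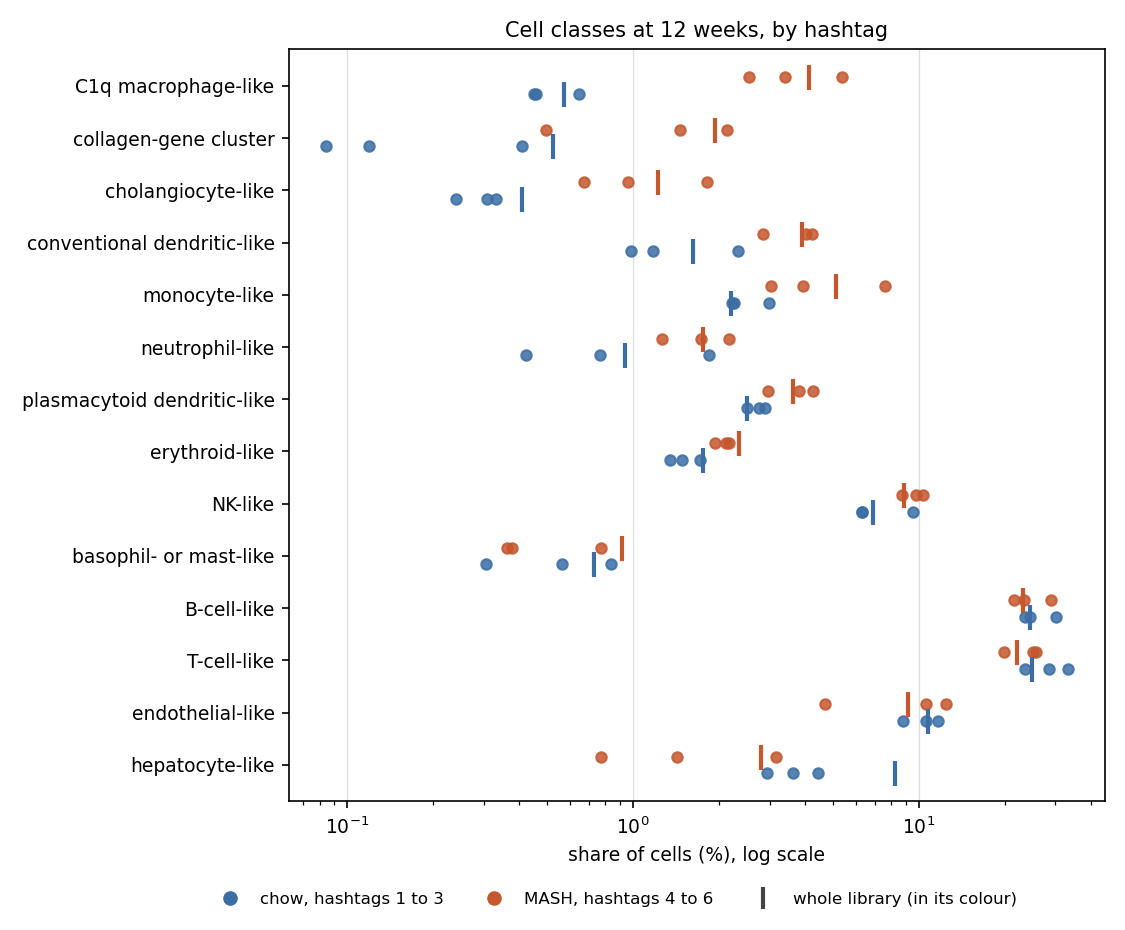
Share of kept cells in each class at 12 weeks, on a logarithmic axis in percent. Dots are the 3 hashtag groups of each library (chow blue, MASH red) and vertical ticks the whole library; C1q macrophage-like, monocyte-like and conventional dendritic-like dots do not overlap between libraries, while B-cell-like and T-cell-like dots do.

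In C1q macrophage-like cells, 94 in chow and 621 in MASH, lipid-handling genes were higher in MASH while genes of antigen presentation and several chemokines were lower. Of 4405 genes tested, 280 (6.36%) were called higher and 116 (2.63%) lower. From the list of lipid- and scar-associated macrophage genes, 16 of 19 tested members were called higher and 0 lower, with a median log2 ratio of 1.68 against -0.06 over all tested genes. The chow hashtags held few cells of this class (16 in the smallest), so their single values are coarse. The genes of this list that were not class markers were left out when cells were clustered. Gpnmb, Mmp12, Trem2 and Lpl were still among the leading genes of the cluster. Most of its cells over both weeks came from the MASH libraries (621 and 879, against 94 and 27 from chow). Markers of other cell types also differed inside the class. The 10 monocyte markers summed to 6759 CPM in chow and 19133 CPM in MASH (13931, 13316 and 27623 CPM in the MASH hashtags), with Chil3 at 0 in chow. The neutrophil set went from 57.9 to 696 CPM (562, 345 and 124 in the MASH hashtags) and the erythroid set from 238 to 1364 CPM (1093, 775 and 3139 in the MASH hashtags). S100a8 and S100a9, which define neutrophils, were at 0 in chow. The part of such cells or of their RNA in the values of this class was not tested.

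Trem2 (GRCm38 chr17:48346401-48354147), a lipid-sensing receptor, had 227, 209.8 and 257 CPM in chow hashtags 1 to 3 and 928, 401 and 526 CPM in MASH hashtags 4 to 6, a ratio of 3.096, 2.42 to 4.03. The 3 MASH values were above the 3 chow values. Gpnmb (chr6:49036546-49070929), a membrane glycoprotein of lysosome-loaded macrophages, had 0, 0 and 297 CPM in the chow hashtags and 1334, 446 and 604 CPM in the MASH hashtags (ratio 10.5, 6.91 to 16.8). All the chow signal in single-hashtag cells came from hashtag 3, and it stayed under every MASH hashtag. Spp1 (chr5:104435118-104441050), which encodes the secreted protein osteopontin, had 1 UMI in the chow cells and 2817 in the MASH cells, 590.0 CPM, with 1608, 213 and 376 CPM in the MASH hashtags. Spp1 also leads a cholangiocyte-like cluster and was at 241 CPM in MASH barcodes with more than 100 and at most 300 UMIs, which hold no cells, so hashtag 5 was below that level. The part of free RNA in the other values was not tested.

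Enzymes of lysosomes and lipid use moved with them. Lipoprotein lipase Lpl went from 134 to 985 CPM (ratio 7.35, 5.46 to 10.1), the lysosomal protease Ctsd from 536 to 3004 CPM (5.601, 4.83 to 6.54) and the lysosomal lipase Lipa from 116 to 372 CPM (3.21, 2.33 to 4.55). The lipid droplet protein Plin2 went from 67.04 to 370.3 CPM and the lipid receptor Cd36 from 60.9 to 207 CPM. Cd9, a tetraspanin of scar-associated macrophages, went from 259 to 446 CPM and was not called. Fabp5, a fatty acid carrier, had a ratio of 5.09 but overlapping hashtags (62.02, 33.1 and 622 against 1044, 487 and 1240.2 CPM). Of the sterol efflux and LXR target genes, 4 of 7 tested were called higher and 0 lower. The cholesterol exporter Abca1 had 62.02, 33.1 and 40.5 CPM in the chow hashtags and 187, 163 and 171 CPM in the MASH hashtags (ratio 4.296, 2.44 to 8.35), and Abcg1 and the lipid transfer protein Pltp had ratios of 2.19 and 2.86.

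**Figure D2:**
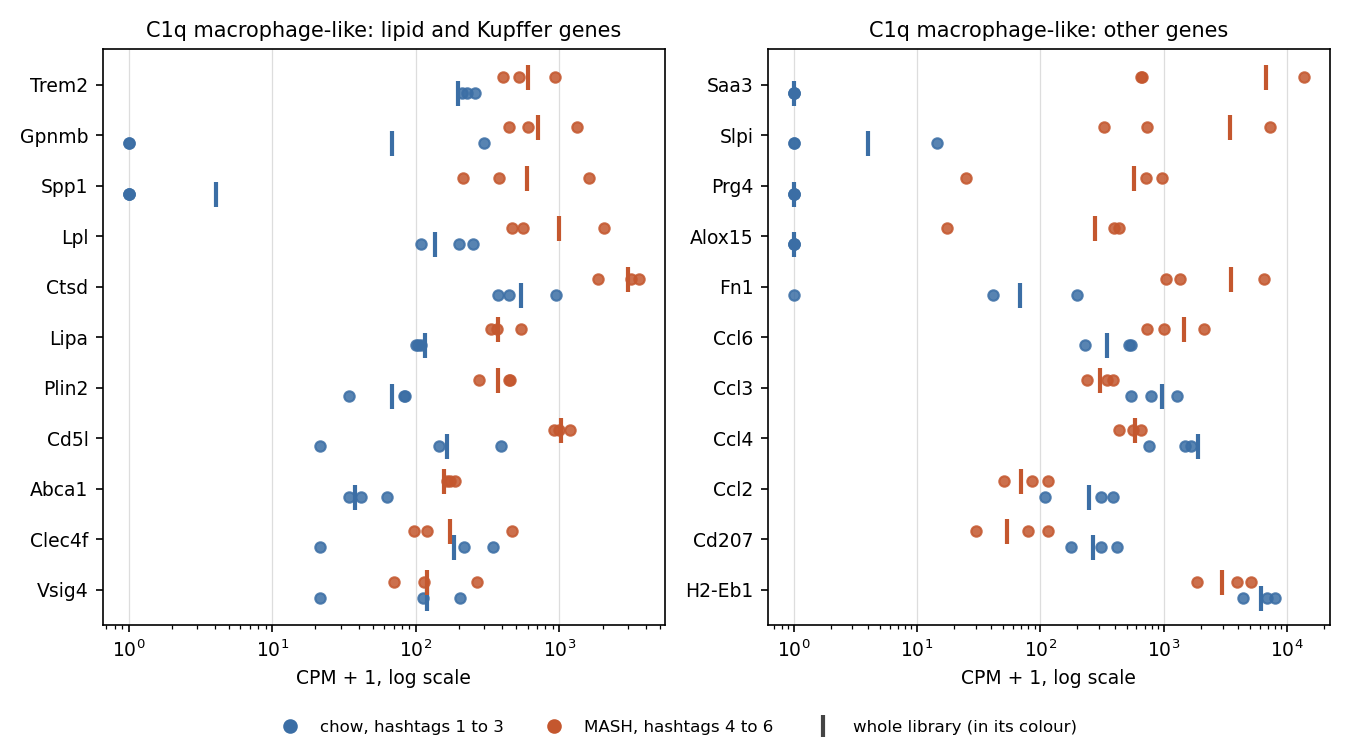
Expression in C1q macrophage-like cells in CPM + 1 on a logarithmic axis, for 3 hashtag groups of each library (dots) and the whole library (vertical ticks). In the upper rows of the first panel Trem2, Gpnmb, Lpl and Ctsd dots of MASH lie to the right of chow, Vsig4 and Clec4f overlap, and in the second panel Ccl3 and Ccl4 lie to the left.

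The resident Kupffer cell genes gave no common direction (2 of 8 tested called higher, 1 lower, median log2 ratio -0.04). Clec4f, a lectin that defines Kupffer cells, had 20.7, 342 and 216 CPM in chow and 96.7, 465 and 118 CPM in MASH, by hashtag, and the hashtags overlapped. Vsig4, a complement receptor, was at 119 CPM in chow and 119 CPM in MASH, and Timd4, of long-resident Kupffer cells, at 12.2 and 13.4 CPM. Cd5l, an apoptosis inhibitor made by tissue macrophages, had 20.7, 144 and 392 CPM in the chow hashtags and 911, 1181 and 992 CPM in the MASH hashtags (ratio 6.26, 4.79 to 8.34). The scavenger receptor Marco had no UMI in chow and 38.1 CPM in MASH, at least 4.17-fold higher. Cd207, the lectin langerin, was the member called lower, with 413, 177 and 311 CPM in the chow hashtags and 77.97, 114 and 29.3 CPM in the MASH hashtags (ratio 0.1999, 0.156 to 0.258). Clec4f, Cd5l and the other Kupffer markers took part in the clustering, so their levels in the cluster are a description of it.

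Within this class MASH hashtag 6 stood apart from hashtag 4. Saa3 (chr7:46711998-46715700), an acute-phase serum amyloid, had no UMI in the 94 chow cells and 649, 669 and 13771 CPM in MASH hashtags 4 to 6. The library value was at least 744-fold higher, counted from a floor of 3 UMIs in the chow class. The protease inhibitor Slpi had 324, 729 and 7298 CPM and fibronectin, Fn1, 1051, 1345 and 6560.0 CPM in the MASH hashtags. Prg4 (chr1:150449412-150466165), the lubricant proteoglycan, had 23.9, 713 and 977 CPM there and 0 in chow, at least 62.5-fold higher, and the lipoxygenase Alox15 16.6, 397 and 431 CPM. Prg4 and Alox15, with F5 and Gata6, are known markers of large peritoneal macrophages, a list added after the data were seen. Their summed level was 0, 0 and 13.5 CPM in the chow hashtags and 49.9, 1250.4 and 1679 CPM in the MASH hashtags, from 1 UMI in chow and 4755 in MASH. Slpi, Saa3, Hp, Prg4 and Fn1 were the 5 largest higher calls of the class by the naming rule, and all 5 were highest in hashtag 6. With the 12-week libraries clustered alone, F5 was a leading gene of the monocyte-like cluster, and in the C1q macrophage-like class the log2 ratio was 4.67 for Saa3 and 1.02 for Fn1, while Trem2 had 2.31, Gpnmb 6.70, Cd5l 2.51 and Cd207 -1.77. The part of peritoneal macrophages in these values was not otherwise tested.

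Inflammatory mediators moved in both directions in these macrophages: 4 of 16 tested were called higher and 6 lower (median log2 ratio -0.60). That median rested on which cells were read: over single-hashtag cells it was 0.083, and without chow hashtag 2 it was 1.77. The chemokine Ccl4 had 765, 1679 and 1500.2 CPM in the chow hashtags and 657, 558 and 429 CPM in the MASH hashtags (ratio 0.307, 0.281 to 0.335), below chow in every hashtag. Ccl3 went from 972 to 305 CPM and Ccl2 from 247 to 68.7 CPM, while Ccl6 went from 347 to 1462 CPM (ratio 4.21, 3.498 to 5.11) and Ccl9 from 67.04 to 358 CPM. Of the MHC class II genes, which present antigen to CD4 T cells, 0 of 7 tested were called higher and 3 lower, with a median of -0.98. H2-Eb1 had 7959, 4418 and 6866 CPM in chow and 3963, 5089 and 1858 CPM in MASH, by hashtag, so the hashtags overlapped, and the invariant chain Cd74 went from 18101 to 9269 CPM. Under a coarser clustering that merged monocytes into this class the median turned to 0.077 and the log2 ratios of H2-Eb1 and Ccl6 to 0.19 and -0.049. T-cell markers summed to 1902 CPM in the chow class and 893 in MASH. Of 16 immediate-early and heat-shock genes that tissue handling is known to induce, 15 had ratios below 1 in this class, with a median log2 ratio of -0.66. The part of either in the lower chemokine and MHC values was not tested. In plasmacytoid dendritic-like cells 1 of 10 MHC class II members was called lower, H2-Ob, and 9 ratios were below 1. In B-cell-like, conventional dendritic-like, monocyte-like and endothelial-like cells 0 of 10 were called.

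In monocyte-like cells some lipid- and scar-associated genes and cell cycle genes were called higher in MASH. Of 8214 genes, 174 (2.12%) were called higher and 52 (0.633%) lower. Of the lipid- and scar-associated list, 6 of 18 were called higher and 0 lower, median log2 ratio 0.82 against 0.00. Gpnmb had 0, 14.6 and 0 CPM in the chow hashtags and 20.5, 77.5 and 160.0 CPM in the MASH hashtags (ratio 13.99, 6.35 to 38.4). Cd63, a lysosomal membrane protein, went from 3.403 to 90.9 CPM, Fabp5, a fatty acid carrier, from 63.3 to 197 CPM, and Mmp14, a matrix protease, from 4.08 to 36.1 CPM. Both called LXR genes were higher, Abca1 from 10.9 to 36.9 CPM and the receptor gene Nr1h3 itself from 7.49 to 35.9 CPM. The neutrophil-attracting chemokine Cxcl2 went from 484 to 1023 CPM, and Cxcl1 from 0 UMIs to 25.6 CPM, at least 12.5-fold higher.

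Of the cell cycle genes 10 of 14 were called higher in monocyte-like cells and 0 lower, with a median log2 ratio of 3.10. Mki67 had 15.04, 11.7 and 6.19 CPM in the chow hashtags and 58.6, 25.1 and 43.2 CPM in the MASH hashtags and the topoisomerase gene Top2a 0, 11.7 and 0 CPM in the chow hashtags and 43.2, 35.3 and 28.8 CPM in the MASH hashtags. Every MASH hashtag was above every chow hashtag for both, and hashtag 4 was highest. Genes of early granulocytes were higher in the same library, mainly in hashtag 4. Elane, neutrophil elastase, had 3.01, 0 and 0 CPM in chow and 450.3, 5.696 and 24.00 CPM in MASH, by hashtag. Elane, Mpo, Prtn3 and Ctsg, a list added after the data were seen, summed to 48.1, 23.4 and 22.7 CPM in the chow hashtags and 1338, 35.3 and 94.4 CPM in the MASH hashtags. The part of such progenitors in the cell cycle values was not tested. Neutrophil markers in the class summed to 160 CPM in chow and 850 in MASH, but to 269, 161 and 160 CPM in the MASH hashtags. Plasma cell markers summed to 234 CPM in chow and 549 in MASH, but to 222, 257 and 203 CPM in the MASH hashtags. The part of RNA from other cells in these library values was not tested. With the 12-week libraries clustered alone, Mki67 and Top2a had log2 ratios of 1.03 and 1.60 and were no longer called. Cell cycle genes were also called higher in neutrophil-like cells (3 of 9, against 2.28% of all genes) and the collagen-gene cluster (4 of 7, against 6.08%). Neither class had the hashtag condition. In the neutrophil-like cluster led by Camp, 34 chow and 50 MASH cells, Top2a went from 63.6 to 192 CPM and Pclaf from 55.7 to 197. In the larger one, 119 and 215 cells, they went from 15.9 to 8.72 and from 15.9 to 0. Elsewhere the calls were lower in MASH: 1 of 14 in T-cell-like (1.55% of all genes), 1 of 12 in NK-like (1.17%), 2 of 13 in B-cell-like (1.46%) and 2 of 14 in endothelial-like cells (1.21%). Serpinb2, an inhibitor of urokinase, and the leukotriene receptor Ltb4r1 were lower in monocyte-like cells, with ratios of 0.467, 0.355 to 0.617 and 0.454, 0.369 to 0.5598. With the 12-week libraries clustered alone, the Serpinb2 difference turned, to a log2 ratio of 1.19.

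In conventional dendritic-like cells maturation genes were higher, in step with the larger share of the mature cluster. Of 9003 genes, 162 (1.80%) were called higher and 61 (0.678%) lower, and of the maturation list 7 of 14 were called higher and 0 lower (median log2 ratio 1.14). Combined over the 2 clusters of the class, so that cluster proportions no longer count, the median was 0.181. Il12b (chr11:44400063-44414033), a subunit of interleukin 12, had 3.89, 2.996 and 28.4 CPM in the chow hashtags and 108, 147 and 30.6 CPM in the MASH hashtags, a ratio of 7.73, 5.13 to 12.2 that became 2.71 after combining clusters. The chemokines Ccl22 and Ccl5 went from 3.63 to 1.797 and from 3.28 to 1.61 in the same way, and the channel subunit Cacnb3 from 2.79 to 0.953. Tnf and Cxcl2, inflammatory cytokines, kept ratios of 2.42 and 3.51 after combining. Il12b, Ccl22 and Cacnb3 were left out of the clustering.

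Among the other higher calls in conventional dendritic-like cells, Slc4a8, a bicarbonate transporter, went from 7.56 to 53.7 CPM (ratio 7.100, 4.15 to 13.2, and 2.76 over clusters), and the cholesterol exporter Abcg1 from 44.3 to 93.4 CPM. The interferon response genes Oasl2, Ifit2 and Rsad2 were called higher, 3 of 12 tested against 1.80% of all genes. Among the lower calls were the fructose-phosphorylating enzyme Khk, from 71.8 to 28.9 CPM (ratio 0.402, 0.314 to 0.514), and Idh2, a mitochondrial isocitrate dehydrogenase, from 62.6 to 27.4 CPM.

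Plasmacytoid dendritic-like cells had few calls, 67 (0.776%) higher and 64 (0.742%) lower of 8629. The heat-shock genes Hspa1a and Hspa1b, near-identical copies whose reads cannot be split with confidence, went from 25.2 to 89.9 CPM and from 28.7 to 150.5 CPM. At 24 weeks both ratios were below 1 (0.3595 and 0.40). H1f0, a linker histone, went from 59.8 to 23.5 CPM (ratio 0.393, 0.286 to 0.537).

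Neutrophil-like cells, tested over 2989 genes, had 68 (2.28%) higher and 53 (1.77%) lower calls. The C-type lectin Clec4n went from 27.8 to 137 CPM, prostaglandin synthase Ptgs2 from 79.4 to 299 CPM and the chemokine Ccl4 from 115 to 597 CPM (ratio 5.19, 3.56 to 7.84). Rtp4 and Rsad2, both interferon-induced, had ratios of 3.25 and 3.07. None of the 12 granule and maturation genes was called. Among the lower calls Cd3d and Cd3g are T-cell genes, and T-cell markers in the class summed to 675 CPM in chow and 270 in MASH.

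In T-cell-like cells of MASH the granzyme gene Gzmk, the factor Eomes, 3 chemokines and the inhibitory receptors Pdcd1 and Lag3 were higher, and Zbtb16, Il4 and Cxcr6 were lower. Of 11789 genes, 241 (2.04%) were called higher and 183 (1.55%) lower. The cytotoxic list had 5 of 16 members called higher and 0 lower (median log2 ratio 0.30 against -0.07 over all genes). The 5 were Gzmk, Eomes and the chemokines Ccl3, Ccl4 and Ccl5. The T helper and regulatory list had 2 of 12 called higher (Ikzf2 and Cd8b1) and 2 lower (Zbtb16 and Il4; median 0.32), and the exhaustion and residency list 4 of 15 higher and 1 lower, Cxcr6 (median 0.49). Gzmk (chr13:113171608-113225908), the granzyme of pre-exhausted and memory CD8 T cells, had 1.45, 1.84 and 8.34 CPM in chow hashtags 1 to 3 and 61.3, 49.4 and 44.3 CPM in MASH hashtags 4 to 6, a ratio of 9.47, 7.15 to 12.8. Eomes (chr9:118478212-118486132), a transcription factor of effector and memory T cells, had 7.27, 7.97 and 11.5 CPM in the chow hashtags and 56.9, 51.2 and 42.95 CPM in the MASH hashtags (ratio 5.63, 4.498 to 7.12). The MASH hashtags lay close together for both genes, and all chow hashtags lay below them.

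The chemokine Ccl5, made by effector T cells, had 2434, 2359.6 and 4356 CPM in the chow hashtags and 7588, 7621 and 7092 CPM in the MASH hashtags (ratio 2.33, 2.296 to 2.36). Cd8b1, a chain of the CD8 coreceptor, had 96.9, 109.8 and 171 CPM in chow and 298, 324 and 227 CPM in MASH, by hashtag, while Cd4 went from 76.5 to 59.3 CPM. The inhibitory receptors Pdcd1 and Lag3 went from 3.400 to 12.2 CPM (ratio 3.58, 2.45 to 5.35) and from 2.91 to 12.4 CPM (4.24, 2.84 to 6.52), and Tox, a factor of exhausted T cells, from 31.2 to 65.5 CPM. Ikzf2, of regulatory T cells, went from 51.00 to 114 CPM, with Foxp3 from 5.44 to 11.1 CPM but overlapping by hashtag. Ifng was not called (354 to 296 CPM).

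Zbtb16 (chr9:48654297-48836222) encodes PLZF, the factor of invariant NKT and other innate-like T cells. It had 99.8, 78.5 and 67.8 CPM in the chow hashtags and 16.1, 19.3 and 17.1 CPM in the MASH hashtags, a ratio of 0.239, 0.205 to 0.278, with every MASH hashtag under every chow hashtag. Il4, the type 2 cytokine that NKT cells hold as ready transcripts, had 94.5, 60.7 and 63.3 CPM in chow and 17.7, 36.8 and 24.98 CPM in MASH, by hashtag (ratio 0.416, 0.362 to 0.477), and the liver-homing receptor Cxcr6 went from 337 to 167 CPM. In the largest 3 clusters of the class, the ratio of Gzmk was 10.2, 5.86 and 5.65, and that of Zbtb16 0.203, 0.252 and 0.275. Il4 had 0.408, 0.419 and 0.497 there, the last with an interval of 0.107 to 1.95. In the fourth cluster, of 71 chow and 95 MASH cells, the intervals of Zbtb16 (0.5796, 0.294 to 1.15), Il4 (1.101, 0.0573 to 64.97) and Cxcr6 (0.892, 0.691 to 1.16) included 1, and Eomes had no UMI in either library. Eomes, an NK-cell marker in the marker lists, took part in the clustering, while Gzmk, Zbtb16 and Il4 did not. NK-cell markers in the T-cell-like class summed to 520 CPM in chow and 644 in MASH, and monocyte markers to 490 and 1328. The monocyte set holds Ly6c2, itself called higher in T-cell-like cells. Ly6c2 was at 447 CPM in chow and 1423 CPM in MASH in the largest cluster of the class. The part of RNA from other cells in the T-cell values was not tested. Ighg2b, an antibody gene, was the largest T-cell call by the naming rule, from 0.389 to 210.0 CPM, but was at 4.11, 3.86 and 2.63 CPM in the single-hashtag MASH cells.

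In NK-like cells no cytotoxic gene was called in either direction. Of 9643 genes, 83 (0.861%) were called higher and 113 (1.17%) lower, with 0 of 16 cytotoxic list members among them (median log2 ratio -0.39). Granzyme A, Gzma, had 9947, 7836 and 8269 CPM in the chow hashtags and 5947, 5379 and 4890.2 CPM in the MASH hashtags (ratio 0.601, 0.591 to 0.612), granzyme B, Gzmb, a ratio of 0.582, 0.554 to 0.611, and perforin, Prf1, 0.673, 0.631 to 0.719. For Gzma, Gzmb and Prf1 all MASH hashtags were below the chow hashtags, though by less than 2-fold. Ccl5 was at 16019 CPM in chow and 15808 CPM in MASH, and Ifng at 481 and 457 CPM. The summed cytotoxic list was 45299.8, 40119 and 40668 CPM in the chow hashtags and 32675, 35821 and 33639 CPM in the MASH hashtags in NK-like cells and 5234, 5212 and 7555 against 10984, 11075 and 10049.5 CPM in T-cell-like cells. Without Ccl5, a sum added after the data were seen, the T-cell values were 2801, 2853 and 3198 against 3397, 3455 and 2958 CPM and overlapped between libraries. The difference between NK-like and T-cell-like cells was not tested. The cluster led by ILC1 genes such as Cd200r2 had a share ratio of 1.57 and the cluster with Klra8 and Prf1 1.14. Gzma served as an NK-cell marker in the clustering. Higher calls included the adhesion glycoprotein Emb, from 136 to 298 CPM (ratio 2.19, 1.96 to 2.45), and the chemokine receptor Ccr2, from 87.2 to 177 CPM. Lower calls included the potassium channel Kcnj8, from 68.8 to 25.3 CPM (ratio 0.368, 0.291 to 0.462).

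**Figure D3:**
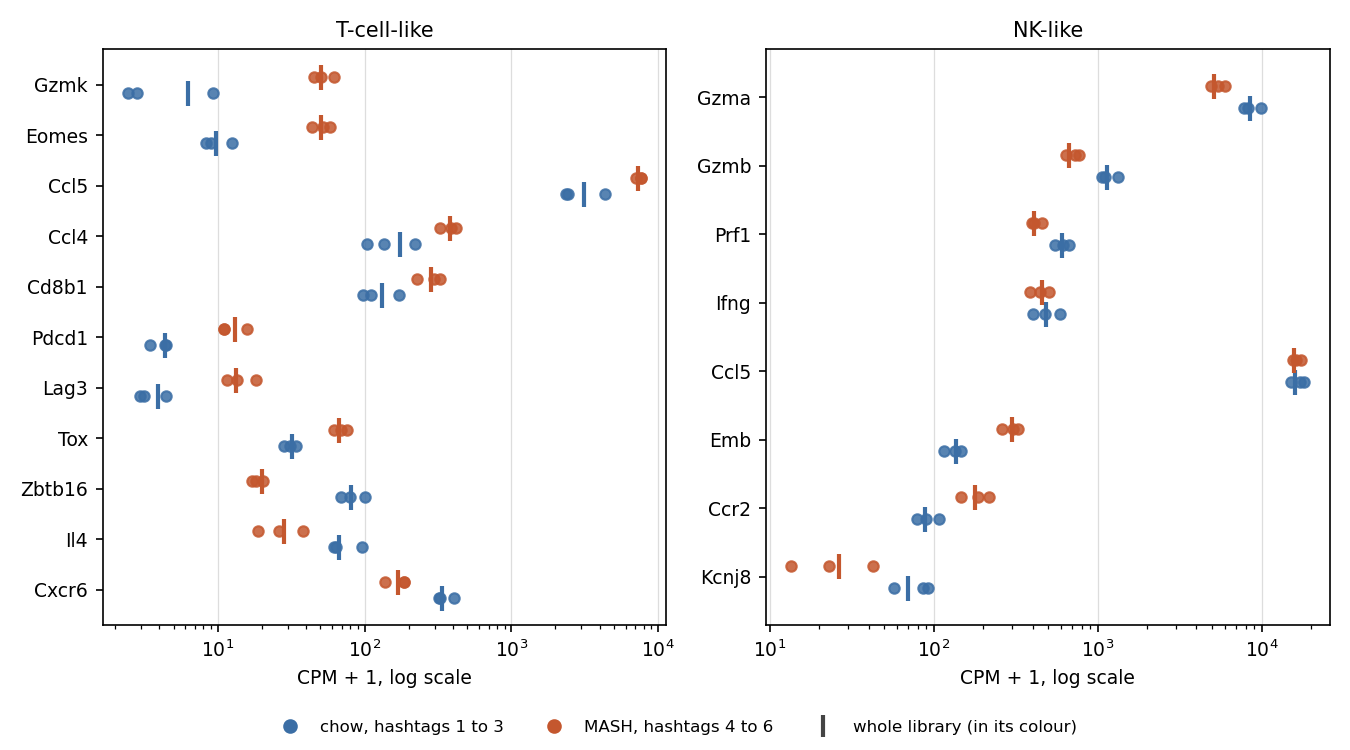
Expression in T-cell-like cells and in NK-like cells in CPM + 1 on a logarithmic axis, by hashtag (dots) and library (vertical ticks). Gzmk and Eomes of T-cell-like cells lie higher in all 3 MASH hashtags and Zbtb16 and Il4 lower, while Gzma, Gzmb and Prf1 of NK-like cells lie slightly lower.

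B-cell-like cells, tested over 10952 genes, had 93 (0.849%) higher and 160 (1.46%) lower calls. Il9r, the interleukin 9 receptor chain of memory B cells, was the activation gene called higher among 18 tested, with 5.77, 4.86 and 12.7 CPM in the chow hashtags and 37.5, 31.3 and 48.1 CPM in the MASH hashtags (ratio 4.66, 3.55 to 6.22). Fam129c, a B-cell protein also named BCNP1, had 49.3, 63.8 and 49.8 CPM in chow and 20.4, 25.5 and 24.7 CPM in MASH, by hashtag (ratio 0.448, 0.378 to 0.529, and 0.396 combined over clusters). Switched antibody genes were rare: Ighg2c went from 0 UMIs to 4.32 CPM, at least 10.3-fold higher, with the caution that Ighg2b and Ighg2c are near-identical. Its level in MASH barcodes without cells was higher, at 7.62 CPM, and under the coarser clustering its log2 ratio turned to -1.86.

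Genes of cholesterol synthesis and uptake had median ratios below 1 in the 8 classes where at least 11 of them were tested, and some members were called lower in 6 of them. Of the 18 genes listed, 3 of 17 tested were called lower in plasmacytoid dendritic-like cells (median log2 ratio -0.74 against -0.02 over all genes), 3 of 17 in endothelial-like cells (-0.72 against -0.05), 3 of 17 in T-cell-like cells (-0.62 against -0.07), 3 of 11 in hepatocyte-like cells (-0.57 against 0.01), 2 of 14 in NK-like cells (-0.47 against -0.06) and 2 of 13 in monocyte-like cells (-0.32 against 0.00). Of all genes tested, the share called lower in these classes was, in the same order, 0.742%, 1.21%, 1.55%, 2.16%, 1.17% and 0.633%. In B-cell-like and conventional dendritic-like cells 0 were called in either direction (medians -0.22 and -0.33). In hepatocyte-like cells 1 member was called higher. The promoters of 3 genes that bear on this are shown, because SREBP2 is known to act at promoters of the pathway. They run from 250 bases before to 50 bases after the start site, from RefSeq on GRCm38.p6. Hmgcs1 encodes HMG-CoA synthase, Insig1 the protein that holds SREBP in the endoplasmic reticulum at high sterol, and Idi1 isopentenyl diphosphate isomerase. Capitals mark CACNCCAC, a core of the sterol regulatory element, on either strand.
Hmgcs1 promoter (chr13:119690101-119690400, + strand): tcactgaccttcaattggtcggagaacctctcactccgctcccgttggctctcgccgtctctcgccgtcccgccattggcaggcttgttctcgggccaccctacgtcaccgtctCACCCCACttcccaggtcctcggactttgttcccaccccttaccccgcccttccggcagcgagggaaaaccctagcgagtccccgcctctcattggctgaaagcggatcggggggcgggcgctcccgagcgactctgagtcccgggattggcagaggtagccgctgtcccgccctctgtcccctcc
Insig1 promoter (chr5:28071162-28071461, + strand): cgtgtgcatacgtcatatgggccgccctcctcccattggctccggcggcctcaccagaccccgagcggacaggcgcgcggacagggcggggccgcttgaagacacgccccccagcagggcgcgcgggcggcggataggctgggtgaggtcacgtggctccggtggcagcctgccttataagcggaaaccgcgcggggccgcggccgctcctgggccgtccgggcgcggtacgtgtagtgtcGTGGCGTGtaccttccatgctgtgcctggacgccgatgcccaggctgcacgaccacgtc
Idi1 promoter (chr13:8885356-8885655, + strand): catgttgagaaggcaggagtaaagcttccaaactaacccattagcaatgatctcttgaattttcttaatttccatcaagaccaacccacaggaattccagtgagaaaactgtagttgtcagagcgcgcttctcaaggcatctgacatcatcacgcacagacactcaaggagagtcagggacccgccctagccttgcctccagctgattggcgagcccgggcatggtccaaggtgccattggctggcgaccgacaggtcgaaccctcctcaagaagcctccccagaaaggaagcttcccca

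The match in Hmgcs1 starts at base -136 from the start site and reads CACCCCAC, and that in Insig1 starts at -9 and reads GTGGCGTG on the strand shown. Idi1 has no match in this window. CACNCCAC was in 2050 of 32851 RefSeq promoters of this length (6.24%) and in 2 of the 12 promoters found for 10 of the 18 genes. A match is a run of letters and not a measured site, and both the matched Hmgcs1 and the unmatched Idi1 were lower in hepatocyte-like cells. Idi1 had 311, 357 and 327 CPM in the chow hashtags and 79.2, 142 and 140.1 CPM in the MASH hashtags there (ratio 0.362, 0.284 to 0.456). Hmgcs1 had 328, 281 and 237 CPM in chow and 123, 174 and 155 CPM in MASH, by hashtag (ratio 0.508, 0.407 to 0.629). Insig1 went from 66.9 to 54.5 CPM, with overlapping hashtags.

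Fdps, farnesyl diphosphate synthase, gave the clearest values in plasmacytoid dendritic-like cells, with 488, 361 and 361 CPM in the chow hashtags and 109.5, 187 and 162 CPM in the MASH hashtags (ratio 0.399, 0.354 to 0.449). In hepatocyte-like cells it had 460.5, 535 and 682 CPM in chow and 106, 229 and 237 CPM in MASH, by hashtag. All MASH hashtags were below all chow hashtags in both classes. In T-cell-like cells Fdps went from 34.2 to 17.7 CPM, just short of 2-fold. In NK-like cells Idi1 went from 14.2 to 3.67 CPM (ratio 0.258, 0.139 to 0.459), and in monocyte-like cells from 17.02 to 7.54 CPM.

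Summed over the list, T-cell-like cells had 391, 354 and 341 CPM in the chow hashtags and 238, 266 and 229 CPM in the MASH hashtags, plasmacytoid dendritic-like cells 1893, 1519 and 1429 against 732, 1009 and 1021 CPM, endothelial-like cells 308, 366 and 464 against 212, 239 and 243 CPM and hepatocyte-like cells 1473, 1567 and 1572 against 581, 850.3 and 812 CPM. The same sums were 244, 246 and 228 against 164, 176 and 191 CPM in NK-like, 278, 284 and 296 against 225, 266 and 232 CPM in B-cell-like and 481, 677 and 436 against 305, 422 and 373 CPM in monocyte-like cells. In these 7 classes each MASH hashtag was below each chow hashtag, and conventional dendritic-like cells overlapped (915, 995 and 969 against 726, 934 and 662 CPM). The library median over the list in monocyte-like cells rested on chow hashtag 2 and MASH hashtag 4: computed over single-hashtag cells without either, it was 0.0026 and 0.011.

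**Figure D4:**
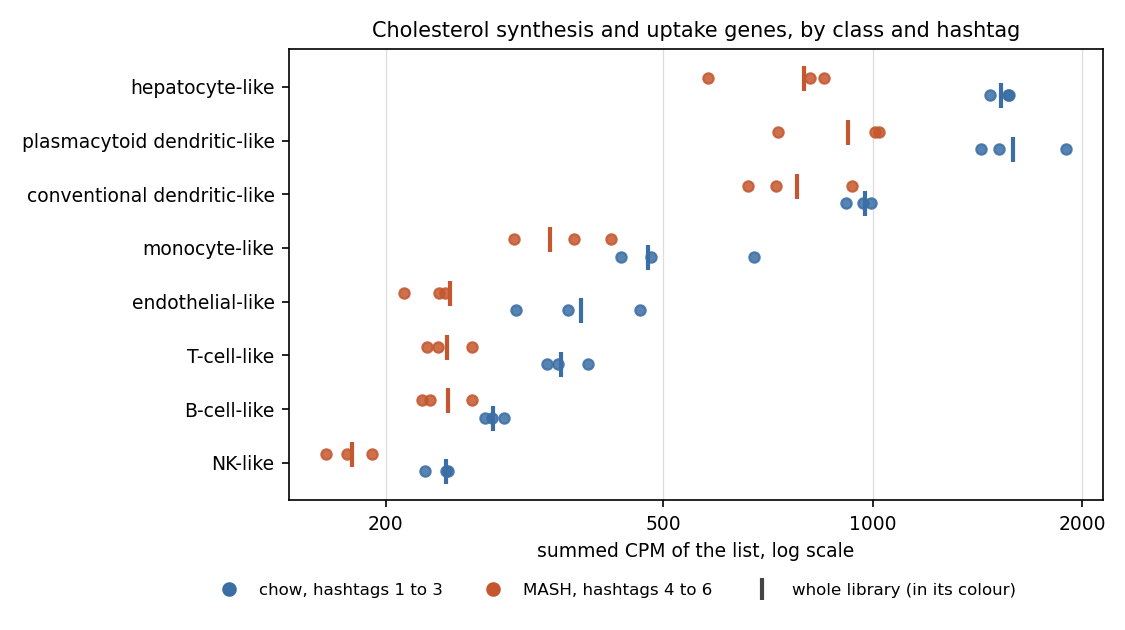
Summed CPM of the 18 genes of cholesterol synthesis and uptake in 8 classes, on a logarithmic axis, by hashtag (dots) and library (vertical ticks). MASH dots lie to the left of chow dots in every class drawn except conventional dendritic-like cells, where they overlap.

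Endothelial-like cells, most with sinusoidal markers such as Stab2 and Clec4g, had 171 (1.43%) genes called higher and 144 (1.21%) lower of 11917. Ednrb (chr14:103814625-103844402), the endothelin B receptor, had 62.8, 43.7 and 7.14 CPM in chow hashtags 1 to 3 and 318, 254 and 352 CPM in MASH hashtags 4 to 6. The ratio was 11.6, 9.78 to 13.9, with each MASH hashtag above each chow hashtag, and chow hashtag 3 the lowest. Cd36, a fatty acid and thrombospondin receptor, had 118, 164 and 291 CPM in the chow hashtags and 659, 715 and 717 CPM in the MASH hashtags (ratio 3.89, 3.62 to 4.17). Hepatocyte growth factor, Hgf, a signal of sinusoidal cells to hepatocytes, went from 14.2 to 68.4 CPM (ratio 4.800, 3.74 to 6.24), and Inhbb, an activin subunit, from 29.6 to 93.1 CPM.

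Identity genes were mostly steady: of the sinusoidal list 1 of 16 were called higher, Thbd, the anticoagulant thrombomodulin (119 to 252 CPM), and 0 lower (median log2 ratio -0.03). Of capillary and basement membrane genes 2 of 15 were called higher and 1 lower, among them Cd34 with a ratio of 2.396, 1.89 to 3.06. Of the adhesion molecules 2 of 10 were called higher, P-selectin, Selp (49.3 to 108 CPM), and the chemokine-binding receptor Ackr1 (18.5 to 47.8 CPM), and 0 lower. Cxcl10, an interferon-induced chemokine, went from 72.96 to 167 CPM and Abca1 from 34.6 to 99.9 CPM. Lower calls included Apln, the peptide apelin (10.4 to 1.53 CPM), and the cyclin Ccnd1 (329 to 154 CPM, ratio 0.469, 0.432 to 0.509). Monocyte markers in the class summed to 206 CPM in chow and 449 in MASH, and their part was not tested.

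The collagen-gene cluster, 86 chow and 292 MASH cells, was led by Dcn, Col3a1 and Col1a2 and by the mesothelial genes Upk3b and Nkain4. The stellate cell markers Lrat and Reln had 0 UMIs in chow and 3.01 and 3.28 CPM in MASH, so the cluster is named by its genes and not as stellate cells. Of 5429 genes, 330 (6.08%) were called higher and 239 (4.40%) lower. The makeup of the cluster differed by hashtag. Portal fibroblast genes (Pi16, C7, Dpt and Gsn, a list added after the data were seen) summed to 21078, 10352 and 1255 CPM in the chow hashtags and 123, 3152 and 812 CPM in the MASH hashtags, and the mesothelial genes to 311, 3008 and 4759 CPM in the chow hashtags and 3097, 3975 and 2279 CPM in the MASH hashtags. The smallest chow hashtag held 3 of these cells. Of the matrix and contractile list 4 of 21 tested were called higher and 4 lower (median log2 ratio 0.02 against 0.01 over all genes). Timp1, an inhibitor of matrix proteases, went from 96.8 to 1141 CPM (ratio 11.8, 8.502 to 16.9), smooth muscle actin, Acta2, from 80.7 to 249.7 CPM, and Tagln, its partner in contractile cells, from 0 UMIs to 128 CPM, at least 15.9-fold higher. Fibronectin, Fn1, went from 651 to 2243 CPM. The lower calls were the microfibril gene Fbn1 (643 to 238 CPM), the proteoglycan lumican, Lum (963 to 367 CPM), elastin, Eln (605 to 280.0 CPM), and the matrix protease Mmp2 (376 to 154 CPM). Without chow hashtag 2, over single-hashtag cells, the Fbn1 log2 ratio turned to 0.89. Saa3 was at least 709.9-fold higher, at 5727 CPM. Col1a1 (1710.4 to 2172 CPM) and Col3a1 (4050.1 to 4172 CPM) were not called. With the 12-week libraries clustered alone, the mesothelial-gene cluster held 36 chow and 237 MASH cells and that with Dpt and C7 49 and 51. Under the stricter cell filter the like clusters held 31 and 228, and 46 and 50. The libraries therefore held unlike mixes of these cells in this class. The part of portal fibroblasts and mesothelial cells in these values was not tested.

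Hepatocyte-like cells of MASH had more of the pericentral and less of the periportal transcripts. Of 6201 genes, 136 (2.19%) were called higher and 134 (2.16%) lower. Of the pericentral list 3 of 7 tested were called higher and 0 lower (median log2 ratio 1.67), and of the periportal list 0 of 11 were called higher and 6 lower (median -1.19 against 0.01 over all genes). Cyp2e1 (chr7:140763739-140774987), the pericentral cytochrome that activates CCl4, had 91.3, 562 and 603 CPM in chow hashtags 1 to 3 and 2624, 1101 and 1228 CPM in MASH hashtags 4 to 6 (ratio 4.55, 4.104 to 5.06). Glul (chr1:153899944-153909723), the glutamine synthetase of the cells next to the central vein, had 95.4, 329.6 and 244 CPM in the chow hashtags and 819, 992 and 1058 CPM in the MASH hashtags (ratio 3.597, 3.17 to 4.08). Both were higher in each MASH hashtag than in each chow hashtag.

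On the periportal side, Sds, serine dehydratase, had 639, 411 and 581 CPM in the chow hashtags and 96.8, 54.5 and 101.5 CPM in the MASH hashtags (ratio 0.206, 0.161 to 0.259). Hal, histidine ammonia-lyase, went from 485 to 142 CPM, the glutaminase Gls2 from 347 to 74.01 CPM, and the urea cycle enzymes Ass1 and Arg1 from 7583 to 2275 CPM and from 2547 to 1119.9 CPM. Etnppl, which breaks down phosphoethanolamine, went from 192 to 19.5 CPM (ratio 0.102, 0.0549 to 0.173). Cyp2f2, a periportal cytochrome, overlapped by hashtag (66.4, 32.4 and 43.1 against 70.4, 32.7 and 48.3 CPM). MASH hashtag 4 held 28 hepatocyte-like cells, and some large ratios rest on it: Gulo, the last enzyme of vitamin C synthesis, had 4.15, 21.6 and 10.8 CPM in chow and 696, 21.8 and 24.2 CPM in MASH, by hashtag.

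**Figure D5:**
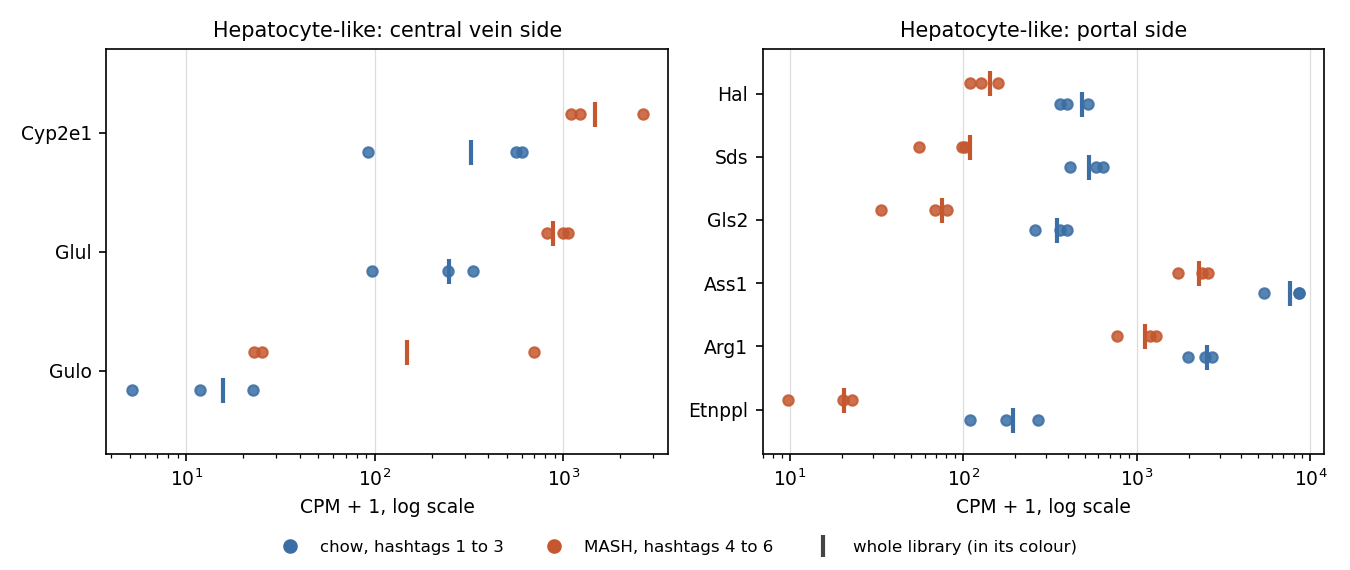
Expression of pericentral genes (Cyp2e1, Glul, Gulo) and periportal genes (Hal, Sds, Gls2, Ass1, Arg1, Etnppl) in hepatocyte-like cells in CPM + 1 on a logarithmic axis, by hashtag (dots) and library (vertical ticks). MASH dots lie to the right of chow for Cyp2e1 and Glul and to the left for the periportal genes.

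Lipid enzymes of hepatocyte-like cells were split. Cpt1a, the carnitine transferase that admits fatty acids to mitochondria, went from 10.6 to 54.5 CPM (ratio 5.16, 2.88 to 9.57). ATP citrate lyase, Acly, fell from 333 to 96.3 CPM and Thrsp, a regulator of lipogenesis, from 3635 to 895 CPM, while Scd1, the desaturase, went from 342 to 647 CPM and Fasn, fatty acid synthase, from 253 to 176 CPM, neither called. The cell cycle inhibitor Cdkn1a had 4.15, 32.4 and 122 CPM in the chow hashtags and 229, 349 and 179 CPM in the MASH hashtags (ratio 4.302, 3.35 to 5.56). Serpina1e (chr12:103946931-103958975), an alpha-1 antitrypsin gene, had 2012, 8839 and 8762 CPM in the chow hashtags and 96.8, 87.2 and 96.7 CPM in the MASH hashtags (ratio 0.0241, 0.0194 to 0.0296). It belongs to a family of near-identical copies, and reads may have been split among them. Enho, the secreted peptide adropin, went from 68.1 to 2.79 CPM and Nnmt, a nicotinamide methyltransferase, from 192 to 27.9 CPM. Hepatocyte markers summed to 29195 CPM in the chow class and 49894 in MASH, with MASH hashtag 4 at 81949 CPM, and the part of RNA from other classes in the ratios was not tested.

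Most calls belonged to 1 class. Over the 8 classes with the hashtag condition there were 1127 higher and 911 lower calls, of 911 and 721 distinct genes, and 775 and 611 of these genes were called in a single class. In at least 5 classes 9 genes were called higher and 12 lower. Saa3 was higher in all 8 classes, yet it was at 402 CPM in MASH barcodes without cells and at 22.8 CPM in T-cell-like cells, below that level. Of the 114 higher calls named by gene and class, Ighg2c in B-cell-like, Cxcl2 and Egr1 in conventional dendritic-like and Abca1 in monocyte-like cells were also below their level in those barcodes, and the part of free RNA in them was not tested. Gnmt, a hepatocyte methyltransferase, was lower in all 8, with 3.401 CPM in MASH T-cell-like cells and 72.7 CPM without cells. Gclm, the modifier subunit of glutathione synthesis, was called lower in 5 classes: plasmacytoid (ratio 0.3501) and conventional (0.374) dendritic-like, T-cell-like (0.339), B-cell-like (0.4001) and NK-like cells (0.335). The notch regulator Dtx1 was called lower in T-cell-like (0.387), NK-like (0.316) and endothelial-like cells (0.294).

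Interferon response genes were called higher in 5 classes and lower in none of the 11 examined. The counts were 3 of 12 tested in NK-like cells (Ifit1, Ifit3 and Ifi44; 0.861% of all genes were called higher), 3 of 12 in conventional dendritic-like cells, 2 of 7 in neutrophil-like cells (2.28%), 1 of 14 in endothelial-like cells (1.43%) and 1 of 7 in the collagen-gene cluster, Irf7 (6.08%). The median log2 ratios were 0.16, 0.52, 0.66, 0.59 and 0.22, and 11 of the 14 endothelial ratios were above 1. In T-cell-like, B-cell-like, monocyte-like, C1q macrophage-like, plasmacytoid dendritic-like and hepatocyte-like cells 0 were called. Ifit1, an antiviral protein, went from 6.602 to 19.8 CPM in NK-like cells. The unfolded protein response list had 0 calls in each of the 8 classes with the hashtag condition. Immediate-early and heat-shock genes were called in plasmacytoid dendritic-like cells (Hspa1a and Hspa1b), in conventional dendritic-like cells (Egr1, ratio 2.099, and Hspa1a, 2.59), in C1q macrophage-like cells (Hspa1a, lower, 0.453, but a log2 ratio of 0.40 under the coarser clustering) and in the collagen-gene cluster (2 of 16 higher). The stress hormone Gdf15 was called higher in monocyte-like (ratio 6.51) and C1q macrophage-like cells (5.801).

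Plaur encodes uPAR, the urokinase receptor the series set out to examine (chr7:24462484-24475968). Over all kept cells Plaur was at 94.1 CPM in chow and 90.2 CPM in MASH (ratio 0.958, 0.921 to 0.998). Within classes it was lower in monocyte-like cells, with 427, 404 and 398 CPM in the chow hashtags and 226, 252 and 306 CPM in the MASH hashtags (ratio 0.563, 0.511 to 0.622), and all MASH hashtags were below chow. In B-cell-like cells Plaur was at 264 CPM in chow and 206 CPM in MASH (ratio 0.779, 0.731 to 0.831) and in plasmacytoid dendritic-like cells at 251 CPM in chow and 201 CPM in MASH (ratio 0.799, 0.705 to 0.906). The hashtags overlapped in both. They were at 280, 323 and 211 CPM in chow and 207, 228 and 189 CPM in MASH in B-cell-like cells. In plasmacytoid dendritic-like cells they were at 333, 164 and 202 CPM in chow and 205, 213 and 204 CPM in MASH. Plaur was near equal in neutrophil-like cells, where it was most abundant of these classes, at 599.6 CPM in chow and 566 CPM in MASH (ratio 0.943, 0.781 to 1.14). C1q macrophage-like cells had 54.9 CPM in chow and 99.9 CPM in MASH (ratio 1.82, 1.14 to 3.100), with overlapping hashtags, and under a stricter cell filter the ratio was 0.962. For T-cell-like cells the Plaur values were 12.2 CPM in chow and 9.22 CPM in MASH (ratio 0.753, 0.575 to 0.985), and for conventional dendritic-like cells 59.4 CPM in chow and 46.05 CPM in MASH (ratio 0.775, 0.613 to 0.984). The ratio farthest from 1 was in cholangiocyte-like cells, 67 in chow and 184 in MASH, with 55.5 CPM in chow and 23.3 CPM in MASH (ratio 0.4195, 0.268 to 0.667). Hashtags overlapped in these 3 classes. The cholangiocyte-like class pools a cluster led by Spp1, 41 chow and 170 MASH cells, with another led by Dmbt1, Spink4 and Tff3, 26 and 14. The latter had more UMIs per cell. The part of this mix in the Plaur ratio was not tested. Plaur was called in 0 of the 10 classes where it was tested, which do not include cholangiocyte-like cells.

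The 24-week libraries gave separate cells under the same regimens, and some 12-week calls were seen in them. Of the higher calls that could be tested at 24 weeks in the same class, 368 of 1047 (35.1%) were at least 2-fold higher there and 16 at least 2-fold lower, against 2.27% of all gene and class pairs higher at 24 weeks. Of the lower calls, 225 of 831 (27.1%) were lower and 18 higher, against 1.81% lower among all pairs. The share of higher calls seen again was 49.2% in endothelial-like and 45.6% in T-cell-like cells, and 4.55% in plasmacytoid dendritic-like cells, where 10.6% were opposite. At 24 weeks the ratio of Ednrb in endothelial-like cells was 24.7, of Gzmk and Zbtb16 in T-cell-like cells 5.73 and 0.249, of Gpnmb and Cd207 in C1q macrophage-like cells 10.05 and 0.133, of Cyp2e1 in hepatocyte-like cells 4.13 and of Il9r in B-cell-like cells 3.55. Sds in hepatocyte-like cells was near 1 (0.861), Thrsp was above 1 (2.16), as was Apln in endothelial-like cells (2.78), and Gclm in T-cell-like cells was 1.23. No hashtag condition was applied at 24 weeks, and the C1q macrophage-like class then held 27 chow and 879 MASH cells. The difference between weeks was not tested.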

How the data were processed

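Single-cell 5′ gene expression with antibody hashtags was measured in 4 liver non-parenchymal libraries, 1 for each diet and week. The files hold UMI counts per gene and barcode as deposited by the authors; per the file headers they come from Cell Ranger 5.0.1, and Cell Ranger 4 for the 12-week MASH library. Genome builds mm10 and GRCh38 are named in the submitters' processing notes, and both 12-week gene lists hold 32285 genes. The MASH barcode list (19014 names) did not match its matrix (737280 columns, 19091 with at least 500 UMIs), so cells were taken by UMI count.

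Doublets were removed with Scrublet in scanpy 1.11.5 at its automatic threshold (at 12 weeks, 11.3% in chow and 12.6% in MASH). Multiple hashtags were seen on 20.4% and 27.8% of cells, and Scrublet removed 26.2% and 25.9% of these, so doublets remain. The 4 libraries were clustered together (2000 variable genes, 30 principal components, 15 neighbours, Leiden resolution 1), leaving out list genes that were not class markers. A cluster was named from at least 3 detected markers. Hashtags were assigned with a mixture model per hashtag. No test was possible with 1 library per group. Tested on simulated counts with 98 genes changed 3-fold among the genes tested in T-cell-like cells, the rules recovered 88.78% of them, with 36 calls among 11595 unchanged genes. In simulated C1q macrophage-like cells, without the hashtag condition, there were 30 calls among 4011 unchanged genes. The simulated hashtags of a library differed by counting error only. These figures therefore cannot tell how many real calls stem from other differences between hashtags or libraries.

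Named genes are Plaur, called and abundant list members, and per class the 5 largest calls in each direction of at least 50 CPM that do not lead a cluster, reach at least 10% of the top class and, if higher, exceed their level in MASH barcodes with 10 to 100 UMIs. That window held 5596 barcodes, so the next window, up to 300 UMIs (49532 barcodes) was added. The comparison, members and lists were chosen with earlier results of these data known. The second barcode window, the combination over clusters and 4 short lists were added after seeing the data. Positions are from GENCODE M21 (GRCm38). Alternatives changed the cell filter, doublet removal, clustering, scaling, fold, expected counts and hashtags. Intervals cover counting error only and hold nothing of the variation between animals. Some genes of the lists are not reported by name here.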

Additional observations from a re-analysis of the deposited data

Results flagged for a closer look

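7 results named here went the other way at 24 weeks, at least 2-fold and with an interval clear of 1. The difference between weeks was not tested, and each week has 1 library per diet. In T-cell-like cells the ratio of Ighg2b, an immunoglobulin constant gene, was 0.00171 at 24 weeks. In plasmacytoid dendritic-like cells the heat-shock genes Hspa1a and Hspa1b had 24-week ratios of 0.3595 and 0.4. H2-M2, a non-classical MHC class I gene, was called lower in C1q macrophage-like cells at 12 weeks and had a ratio of 9.001 at 24 weeks. Apln in endothelial-like cells had 2.78 and Thrsp in hepatocyte-like cells 2.16 at 24 weeks, both lower at 12 weeks. In the collagen-gene cluster elastin, Eln, called lower at 12 weeks, had a ratio of 2.63. At 24 weeks that cluster held 38 chow and 129 MASH cells, and the C1q macrophage-like class 27 and 879. No hashtag condition was applied at 24 weeks.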

How the results depend on the processing

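No paired analysis was possible because there is 1 library per group and the hashtags of the 2 libraries carry different numbers. Against 1127 higher and 911 lower calls over 8 classes, a 1.5-fold limit gave 2281 and 2379, at least 30 expected UMIs 557 and 415, and no hashtag condition 1763 and 1430. A higher limit on expected UMIs tests fewer genes. The cause of the other changes was not tested. Share ratios moved with the cell filter (at least 1000 UMIs, 500 genes and at most 10% mitochondrial UMIs): T-cell-like 0.629, monocyte-like 1.67, neutrophil-like 2.68, endothelial-like 0.928 and hepatocyte-like 0.388. Under that filter a cluster that best matched T cells, with Klra6, Klra7, Gzmk and Eomes among its leading genes, was unnamed. It held 393 chow and 997 MASH cells, which the T-cell-like share of 0.629 leaves out. The part of these cells in the Gzmk and Eomes values was not tested. Without doublet removal T-cell-like was 0.768, B-cell-like 0.854 and endothelial-like 0.955, the cholesterol median in B-cell-like cells -0.38 and the MHC class II median in C1q macrophage-like cells -0.90. There too an unnamed cluster with Klra6, Gzmk and Eomes, of 446 chow and 820 MASH cells, was outside the T-cell-like share. Over single-hashtag cells T-cell-like was 0.824, monocyte-like 1.93, the collagen-gene cluster 6.63 and hepatocyte-like 0.493, and the cholesterol median in conventional dendritic-like cells -0.13. At Leiden resolution 0.5 C1q macrophage-like was 3.30 and endothelial-like 0.964, the cholesterol median in endothelial-like cells -1.09, and the MHC class II median turned to 0.077. Monocyte-like and plasma cells had no class of their own there. The cluster with the sinusoidal markers Stab2 and Clec4g, 2831 chow and 1867 MASH cells, was then named mixed. The endothelial-like values at that resolution came from the cluster led by Rspo3 and Vwf alone, 214 chow and 190 MASH cells. With 12-week libraries clustered alone T-cell-like was 0.772, NK-like 1.16, monocyte-like 2.81 and C1q macrophage-like 5.30, and the last 2 medians -0.94 and -0.51. A cluster with Cd200r2 and Ncr1, 634 chow and 1037 MASH cells, was then named mixed, so the NK-like share leaves it out. Unnamed clusters that best matched T cells held 589 and 593, and 106 and 18 cells, outside the T-cell-like share. A mixed cluster with Stab2 and Clec4g, 1848 and 1139 cells, was outside the endothelial-like class. Median-ratio scaling gave an MHC class II median of -0.92, and combination over clusters a dendritic maturation median of 0.18.

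Leaving out 1 hashtag at a time, over single-hashtag cells, gave share ratios of 0.764 to 0.897 for T-cell-like, 1.20 to 1.52 for NK-like, 0.868 to 1.025 for B-cell-like (reversed without chow hashtag 1, 1.025, or MASH hashtag 5, 1.009), 1.25 to 1.49 for plasmacytoid and 2.09 to 3.41 for conventional dendritic-like, 1.38 to 2.31 for monocyte-like, 5.69 to 8.41 for C1q macrophage-like, 1.34 to 2.83 for neutrophil-like, 0.737 to 1.116 for endothelial-like (reversed without MASH hashtag 4), 4.71 to 13.2 for the collagen-gene cluster, 0.301 to 0.635 for hepatocyte-like and 2.80 to 4.76 for cholangiocyte-like cells. Plaur over all cells ranged from 0.890 to 1.011 (reversed without chow hashtag 1). Cholesterol medians ranged from -0.39 to -0.11 in B-cell-like, -0.36 to -0.074 in conventional dendritic-like, -0.65 to 0.01 in monocyte-like (reversed without chow hashtag 2, 0.0026, or MASH hashtag 4, 0.011) and -0.94 to -0.48 in endothelial-like cells. In C1q macrophage-like cells the inflammatory median ranged from -0.30 to 1.77 and the MHC class II median from -1.25 to -0.49. Of single genes, Plaur in C1q macrophage-like cells reversed under the stricter filter (0.962), at resolution 0.5 (0.477) and over the omitted hashtags, from 0.918 without MASH hashtag 6 to 2.26, and in plasmacytoid dendritic-like cells without chow hashtag 1 (range 0.778 to 1.14). At resolution 0.5 log2 ratios reversed for Ighg2c in B-cell-like cells (-1.86) and for Ccl6 (-0.049), H2-Eb1 (0.19) and Hspa1a (0.40) in C1q macrophage-like cells. Serpinb2 in monocyte-like cells reversed with 12-week libraries clustered alone (1.19), and Cacnb3 in conventional dendritic-like cells over clusters (-0.070). Fbn1 in the collagen-gene cluster reversed without chow hashtag 2 (range -1.41 to 0.89). Of the named genes, 19 lost their call under the stricter filter, 18 without doublet removal and 20 with 12-week libraries clustered alone. With hashtags assigned by at least 80% of hashtag UMIs 7 lost their call. A class with under 20 cells in a hashtag then had no hashtag condition.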
